A study of Rattus norvegicus with 8 samples.

Results

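Neuropeptide precursor genes encode the proproteins from which neurons cut signalling peptides. The 10 genes described here are Penk, Adcyap1, Hcrt, Npy, Sst, Tac1, Cck, Nts, Crh and Cartpt, taken by symbol from a list of names and joined by Ensembl identifier to the count tables. They are 10 of the 32623 annotated genes. Polyadenylated RNA came from hippocampal neuronal cultures of wild-type SD rats on day 18 in vitro. In all, 4 libraries were labelled vehicle and 4 were labelled PAM, for an NMDA receptor positive allosteric modulator, a drug that binds away from the agonist sites and lets the channel pass more current when glutamate opens it. Both groups share strain, genotype and age in culture, and the sources used here do not give the compound, its dose, the length of treatment or the nature of the vehicle. Nothing in the labels says that the libraries of a group are separate cultures, so the p-values rest on the spread between these libraries, and that spread may be technical. The comparison asks which precursor transcripts differed after potentiation of the NMDA receptor.

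Neuropeptides are made as long precursors that enter the regulated secretory pathway, are cleaved by prohormone convertases and are stored in dense-core vesicles until strong or repeated firing releases them. Most act on G protein-coupled receptors, and they modulate fast transmission rather than carry it. In the hippocampus Sst, Npy, Cck and several others are made by subsets of GABAergic interneurons, while granule cells of the dentate gyrus make enkephalin. Orexin, the product of Hcrt, is known from neurons of the lateral hypothalamus. Transcription of several precursor genes is known to respond to calcium and cAMP, and the cAMP response element TGACGTCA was first described in the somatostatin promoter.

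RefSeq promoter windows of assembly GRCr8, running from 250 bases before to 50 bases after each gene's start, were found for 7 of the 10 precursors: Adcyap1, Hcrt, Npy, Sst, Tac1, Nts and Cartpt. The 250 bases before the start of Hcrt are shown because this gene had the largest fold change of the 10, and those of Cartpt because they hold the full cAMP response element, as does a 30-base stretch at the start of Sst. The first 30 bases of the Adcyap1 window are shown because Adcyap1 also rose. Capitals mark TATAAA in Hcrt (chr10:86191525-86191774, minus strand) and Adcyap1 (chr9:120556694-120556723, minus strand), and TGACGTCA in Cartpt (chr2:32991236-32991485, minus strand) and Sst (chr11:90461537-90461566, plus strand). All run 5′ to 3′ on the gene's strand.
Hcrt: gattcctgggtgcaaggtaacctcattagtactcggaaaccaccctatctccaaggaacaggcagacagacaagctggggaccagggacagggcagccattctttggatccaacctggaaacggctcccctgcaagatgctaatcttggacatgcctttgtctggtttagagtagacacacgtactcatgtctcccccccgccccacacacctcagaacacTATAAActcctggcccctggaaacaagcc
Cartpt: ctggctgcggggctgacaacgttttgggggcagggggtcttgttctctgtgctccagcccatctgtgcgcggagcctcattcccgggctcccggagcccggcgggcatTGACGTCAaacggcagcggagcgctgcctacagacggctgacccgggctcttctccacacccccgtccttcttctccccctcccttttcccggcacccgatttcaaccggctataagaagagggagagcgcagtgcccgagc
Sst: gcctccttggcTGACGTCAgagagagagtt
Adcyap1: taTATAAAtacgagcagaaggccagtcacc

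Positions are offsets from the first base of RefSeq's annotated start, which was not checked against these libraries. TGACGTCA, searched on both strands, lay in the windows of Cartpt, at positions -142 to -135, and Sst, at positions 2 to 9. It lay in 1.83% of all 33469 windows of the same length. Its shorter form TGACG, which overlaps it, was in 4 of the 7 windows (Cartpt, Nts, Sst and Tac1) and in 21.2% of all windows. TGAGTCA, the word bound by AP-1 factors, was in the Nts window alone among the 7 and in 4.63% of all. TATAAA, searched on the gene's strand, was in the windows of Hcrt, at positions -29 to -24, and Adcyap1, at positions -248 to -243, and in 8.8% of all. Neither of the called genes with a window, Hcrt and Adcyap1, held TGACGTCA, TGACG or TGAGTCA there. These matches describe letters in a window and do not show binding, and a missing match says only that the letters are not in that window.

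Libraries held 2960406 to 4389430 counts, and levels of a gene across libraries are given as CPM, counts scaled by library size. A gene with no count could still lie at 3 counts, which is 0.684 to 1.01 CPM depending on the library and covers counting error only. PAM 3 and PAM 4 stood apart from the other 6 libraries: long transcripts were depleted in them, by -0.0853 and -0.132 log2 units for each doubling of exonic length, whereas the other 6 had slopes of 0.00524 to 0.0627. Several results whose call or size rests on them are given with and without them. Of all genes tested 9% were called higher and 9.89% lower. Among the marker lists, 5 of 9 tested pan-neuronal markers fell and 0 rose (summed level 3472 to 4122 CPM with vehicle and 2650 to 3156 CPM with PAM), 5 of 11 excitatory markers fell and 2 rose (1615 to 1877 and 1209 to 1454), and 5 of 15 inhibitory markers fell and 2 rose (1472 to 1720 and 1115 to 1452). Of the glial lists, 4 of 10 astrocyte markers rose and 0 fell (6116 to 6426 and 8468 to 10590 CPM), 5 of 10 oligodendrocyte markers rose and 1 fell (957 to 1069 and 1349 to 1747), and 5 of 5 tested ependymal and choroid plexus markers rose (38.8 to 54.0 and 111 to 199). Among the called markers, Neurod1 (excitatory) and Htr3a (inhibitory) passed the filter on low counts by way of their vehicle libraries, and Tmem212 (ependymal) by way of its PAM libraries. The counts on those lists are thus descriptions, though these genes kept their calls with no such filter. No matched marker was without counts in all 8 libraries, and the part of the marker lists in the results below was not tested. In such bulk samples fewer cells of a type and less RNA per cell cannot be told apart.

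The precursors spanned a wide range of abundance, led by somatostatin. Levels between genes are given as TPM, counts divided by exonic length and scaled to the same total in every library. In vehicle libraries Sst, the peptide gene of interneurons that contact the dendrites of principal cells, stood at 1506 ± 135 TPM (SD, n = 4). That was at or above the level of 99.69% of the 19312 genes with a count in any library. Cck, the cholecystokinin precursor of a class of basket cells, followed at 712 ± 38.1 TPM. Adcyap1, which encodes the peptide PACAP, was at 110 ± 13.5 TPM, Penk, the enkephalin precursor, at 51.4 ± 4.90 and Crh, the corticotropin-releasing hormone precursor, at 37.1 ± 4.33. The other 5 lay at 28.7 ± 5.32 for Tac1, which encodes substance P, 20.8 ± 5.97 for Npy, 8.07 ± 1.63 for Cartpt, 7.27 ± 2.62 for Nts and 2.33 ± 0.821 for Hcrt.

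Vehicle libraries of neighbours in this order overlapped for Crh and Tac1, Tac1 and Npy, and Cartpt and Nts, and did not overlap for the other 6 pairs. The order of the first 6 was kept in PAM libraries. Hcrt moved from place 10 to place 7, at 25.0 ± 6.34 TPM, and there its 4 libraries (18.7 to 32.7 TPM) overlapped those of Tac1 and of Npy. Of the 10 precursors' summed TPM, Sst took 60.6% ± 1.73 in vehicle and 59.3% ± 2.37 in PAM libraries. The share of Cck was 28.7% ± 1.00 and 19.6% ± 3.24, that of Adcyap1 4.42% ± 0.585 and 10.2% ± 1.94, and that of Penk 2.07% ± 0.234 and 5.11% ± 1.51.

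**Figure D1:**
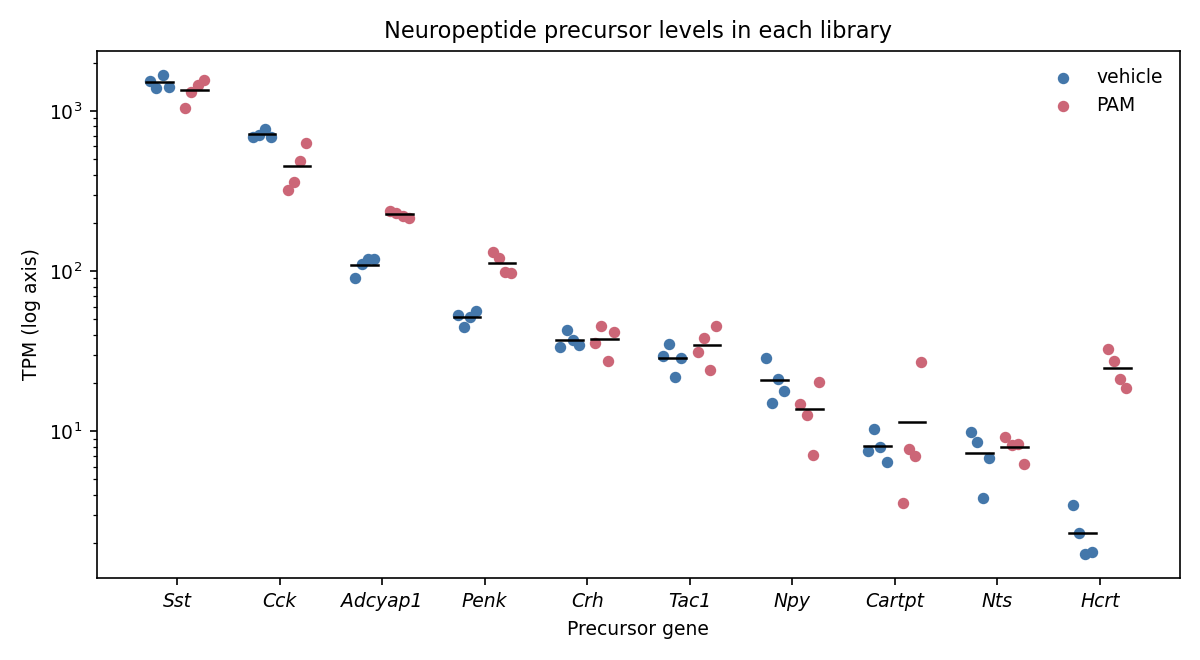
Level of each neuropeptide precursor in TPM (log axis) in the 4 vehicle and 4 PAM libraries; points are libraries and bars are group means. Sst is the most abundant precursor in every library, and Hcrt lies at 1.72 to 3.48 TPM in vehicle and 18.7 to 32.7 TPM in PAM libraries.

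Penk, Adcyap1 and Hcrt rose in PAM libraries, and no precursor was called lower with all libraries. By edgeR's quasi-likelihood test with Benjamini-Hochberg adjustment (adjusted p under 0.05), 3 of the 10 precursors were called, all higher, beside 18.9% of the 11740 genes tested called in either direction and 9% called higher. Libraries of the groups did not overlap for the same 3 genes, beside 22.3% of all genes tested, and 10.3% with the PAM libraries higher. All 10 passed the filter on low counts, Hcrt through its PAM libraries alone. A gene let in by the group where it is high had to differ, so the count of 3 is a description. The median log2 fold change of the 10 was 0.25, against 0.02 for all genes tested. It was 0.14 with each library's trend with exonic length removed, 0.14 without vehicle 3, 0.11 without PAM 3 and PAM 4, and 0.0047 without PAM 4, so that its distance from the median of all genes rests on PAM 4.

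**Figure D2:**
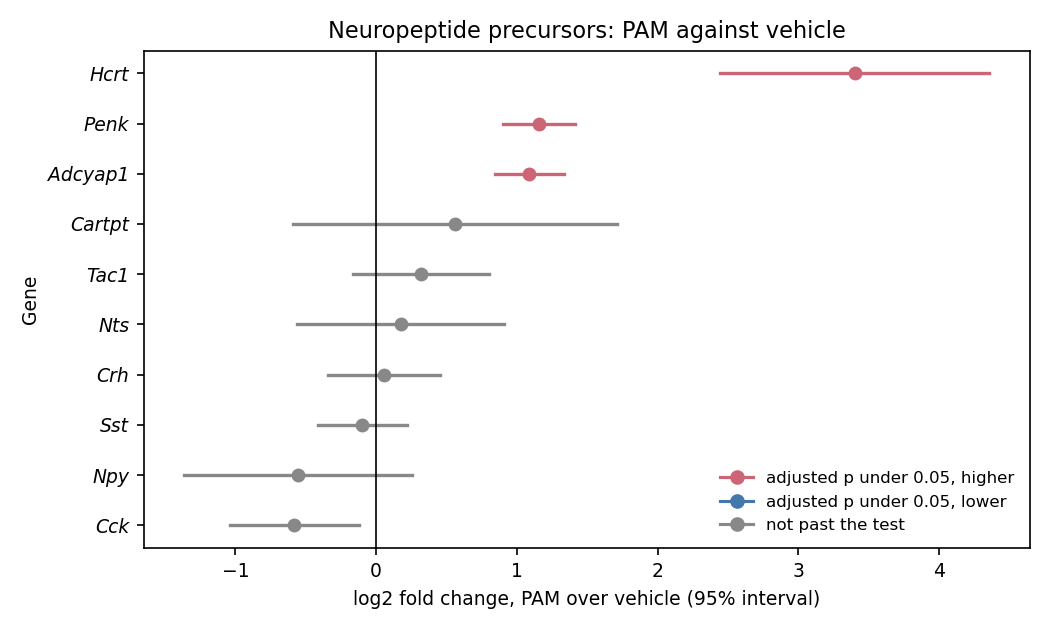
Log2 fold change of each precursor, PAM over vehicle, with its 95% interval from edgeR's quasi-likelihood fit; red marks adjusted p under 0.05 and grey marks genes not past the test. Hcrt, Penk and Adcyap1 lie above 0 with intervals of 2.45 to 4.36, 0.90 to 1.41 and 0.84 to 1.33.

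Penk encodes preproenkephalin, the source of the opioid peptides Met- and Leu-enkephalin (ENSRNOG00000008943; Rnor_6.0, chr5:17056419-17061837, minus strand; exonic length 1702 bases). Its libraries held 187, 175, 183 and 193 counts in vehicle 1 to 4, against 597, 564, 426 and 351 in PAM 1 to 4. Scaled for library size these were 57.0, 48.2, 57.3 and 62.4 CPM and 138, 120, 117 and 127 CPM. The lowest PAM library thus lay well above the highest vehicle library. Mean levels were 56.2 ± 5.92 and 125 ± 9.19 CPM (SD, n = 4), a 2.23-fold rise (95% interval 1.87 to 2.66) or 1.16 ± 0.12 (SE) on the log2 scale (edgeR, Benjamini-Hochberg adjusted p = 5.01e-06). Among the 18 alternatives the log2 fold change ran from 1.09 to 1.21, with every adjusted p at 9.29e-05 or lower.

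Adcyap1 encodes PACAP, a peptide that raises cAMP through its receptor Adcyap1r1 (ENSRNOG00000049882; Rnor_6.0, chr9:121706979-121725716, minus strand; exonic length 2317 bases). Vehicle 1 to 4 held 429, 592, 577 and 554 counts, or 131, 163, 181 and 179 CPM. PAM 1 to 4 held 1465, 1470, 1307 and 1057 counts, or 338, 313, 358 and 381 CPM. All 4 PAM libraries were above all 4 vehicle libraries, and vehicle 1 was the lowest of the 8. The rise was 2.13-fold (95% interval 1.79 to 2.52), a log2 fold change of 1.09 ± 0.12 (edgeR, Benjamini-Hochberg adjusted p = 6.61e-06). The alternatives gave 1.00 to 1.14, the lowest without vehicle 1.

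Hcrt encodes prepro-orexin, the source of the wake-promoting peptides orexin A and B (ENSRNOG00000018892; Rnor_6.0, chr10:88669214-88670430, minus strand; exonic length 558 bases). Only 4, 3, 2 and 2 counts fell on it in vehicle 1 to 4, against 49, 42, 30 and 22 in PAM 1 to 4. In CPM the vehicle libraries were at 1.22, 0.826, 0.626 and 0.647, about the level of 3 counts, and the PAM libraries at 11.3, 8.96, 8.21 and 7.93. The groups did not overlap, and the vehicle level is close to the limit of what this depth can show. The log2 fold change was 3.40 ± 0.46 (95% interval 2.45 to 4.36; edgeR, Benjamini-Hochberg adjusted p = 4.73e-05). Summed over libraries, 11 vehicle and 143 PAM counts gave a depth-scaled ratio of 11.4 with a 95% counting interval of 6.16 to 23.2. Because the filter on low counts let Hcrt in through its PAM libraries, the fit with no such filter also bears on it, and gave 3.40 (edgeR, Benjamini-Hochberg adjusted p = 5.05e-08). The 18 alternatives gave log2 fold changes of 3.24 to 3.64, all past the test.

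Markers of the hypothalamus, where orexin neurons normally lie, were read beside Hcrt. Of 17 markers listed, 5 were matched (Lhx9, Avp, Agrp, Pomc and Trh), and the other 12 were not analysed here. Their summed level was 9.38 to 19.8 CPM with vehicle and 5.99 to 17.3 CPM with PAM, so that the groups overlapped. Such a sum leans on its most abundant gene, Trh, and can hide one that goes the other way. Pomc was at 1.79 ± 0.515 CPM with vehicle and 4.67 ± 3.04 CPM with PAM, Avp at 0.920 ± 0.755 and 0.879 ± 0.602, and Agrp at 1.09 ± 0.925 and 1.56 ± 1.11. Each of these overlapped between groups and was too scarce to be tested. Trh, the precursor of thyrotropin-releasing hormone, was the only one of the 5 abundant enough to be tested, at 7.98 ± 5.27 CPM with vehicle and 3.86 ± 1.195 CPM with PAM (edgeR, Benjamini-Hochberg adjusted p = 0.136). Of the 5 tested ependymal and choroid plexus markers, 4 had no overlap between groups, as Hcrt did, whereas Dnah11, a dynein of motile cilia, was at 2.88 CPM in PAM 4, below its vehicle range of 2.91 to 4.57 CPM. Dnah11, named after its values were seen, also lost its call in limma-voom (adjusted p = 0.0652).

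Among the 11329 tested genes with a symbol, the 2 with a pattern most like each of these 3 precursors were sought by the root mean square difference of log2 CPM, centred on its mean over the 8 libraries. A prior count of 2 went into that log2 CPM, which narrows the contrast of a gene with as few counts as Hcrt and so bears on its matches. For Penk these were Gsta1, a glutathione transferase, at a difference of 0.0674 log2 units, and Oplah, 5-oxoprolinase, at 0.0996. Adcyap1 was most like Stc1, stanniocalcin 1, at 0.0922 and Ifitm3, an interferon-induced membrane protein, at 0.127. Hcrt was most like the chemokine genes Ccl2, at 0.225, and Ccl7, at 0.238. These 6 genes were picked for likeness, so their own changes are given as values alone: log2 fold changes of 1.12 for Gsta1, 1.19 for Oplah, 1.11 for Stc1, 0.93 for Ifitm3, 2.90 for Ccl2 and 2.53 for Ccl7.

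Cck and Sst, the most abundant precursors, varied far more among PAM than among vehicle libraries. Cck (ENSRNOG00000019321; Rnor_6.0, chr8:130120523-130127392, minus strand) was at 423, 443, 495 and 447 CPM in vehicle 1 to 4, against 196, 209, 334 and 475 CPM in PAM 1 to 4. PAM 1, PAM 2 and PAM 3 lay below every vehicle library and PAM 4 lay inside the vehicle range. The coefficient of variation was 6.80% in vehicle and 42.8% in PAM libraries, against 3.03% from counting alone in the latter. The log2 fold change was -0.58 ± 0.21 (95% interval -1.04 to -0.12) and did not pass the test (edgeR, Benjamini-Hochberg adjusted p = 0.0744).

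The call on Cck depended on the libraries and the model. Without PAM 4 its log2 fold change was -0.88 (edgeR, Benjamini-Hochberg adjusted p = 9.12e-05), and without PAM 3 and PAM 4 it was -1.14 (adjusted p = 3.34e-12). With the length trend removed it was -0.75 (adjusted p = 0.00532), with the replicate number as a block -0.67 (adjusted p = 0.00799) and in limma-voom -0.69 (adjusted p = 0.0402). DESeq2 gave -0.57 (adjusted p = 0.198), and the direction was the same in all 18 alternatives. The authors' deposited table gives Cck a log2 fold change of -0.58 with an adjusted p of 0.206.

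Sst (ENSRNOG00000001837; Rnor_6.0, chr11:80358211-80359444, plus strand) was at 594, 544, 674 and 563 CPM in vehicle 1 to 4, against 397, 473, 617 and 732 CPM in PAM 1 to 4. The order of the PAM libraries was the same as for Cck: PAM 1 and PAM 2 lay below the vehicle range, PAM 3 inside it and PAM 4 above it. The group means were 594 ± 57.3 and 555 ± 149 CPM, and the log2 fold change was -0.10 ± 0.15 (95% interval -0.42 to 0.22; edgeR, Benjamini-Hochberg adjusted p = 0.703). Without PAM 3 and PAM 4 it was -0.43 (adjusted p = 4.91e-04), and without PAM 1 it was 0.03 (adjusted p = 0.901). With the length trend removed Sst was at -0.31 (adjusted p = 0.0727). Sst and Cck have 613 and 987 exonic bases and were higher in PAM 3 and PAM 4 than in PAM 1 and PAM 2. Hcrt, of 558 bases, was lower there (8.21 and 7.93 CPM), and Npy, of 607 bases, was lowest in PAM 3 (3.01 CPM). The part of transcript length in these levels was not tested.

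**Figure D3:**
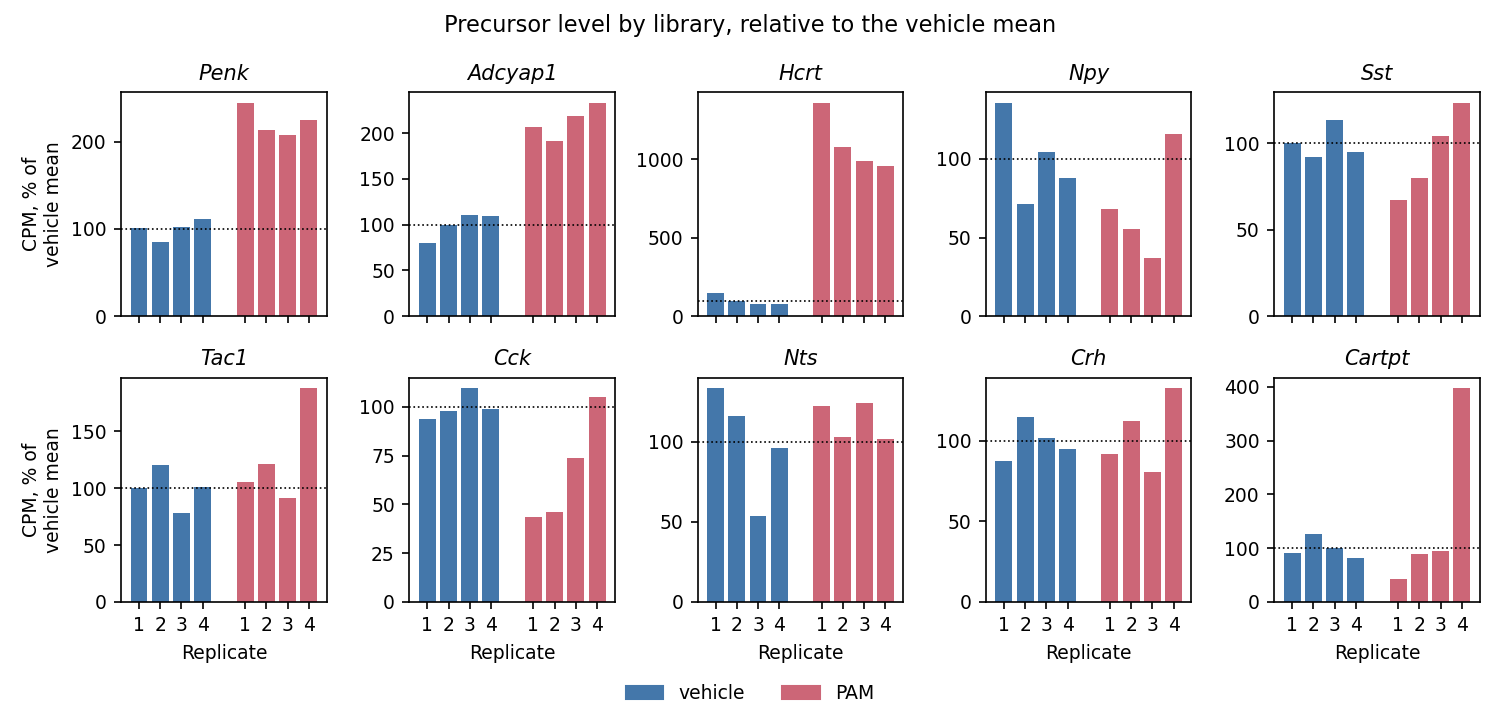
Level of each precursor in each library in CPM, as a percent of the mean of the vehicle libraries; blue bars are vehicle 1 to 4, red bars PAM 1 to 4, the dotted line is 100%, and each panel has its own scale from 0. Penk, Adcyap1 and Hcrt are above the line in every PAM library, Cck runs from 43.5% in PAM 1 to 105% in PAM 4, and Cartpt reaches 398% in PAM 4.

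The remaining 5 precursors did not pass the test. Npy, a peptide of interneurons that damps glutamate release (ENSRNOG00000009768), was at 10.98, 5.78, 8.45 and 7.12 CPM with vehicle and 5.53, 4.48, 3.01 and 9.37 CPM with PAM, which overlapped. Its log2 fold change was -0.55 ± 0.39 (95% interval -1.36 to 0.26; edgeR, Benjamini-Hochberg adjusted p = 0.348). Tac1, the precursor of substance P and neurokinin A (ENSRNOG00000007374), was at 21.7, 26.2, 16.9 and 22.0 CPM with vehicle and 22.8, 26.2, 19.7 and 40.7 CPM with PAM. PAM 4 was far above the other 7 libraries, which overlapped. Its log2 fold change was 0.32 ± 0.23 (95% interval -0.16 to 0.80; edgeR, adjusted p = 0.363), and 0.08 without PAM 4.

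Crh, which drives the stress axis and is made by some hippocampal interneurons (ENSRNOG00000012703), was at 25.0, 32.8, 29.1 and 27.2 CPM with vehicle and 26.3, 31.98, 23.0 and 37.9 CPM with PAM. The log2 fold change was 0.05 ± 0.19 (95% interval -0.34 to 0.45; edgeR, Benjamini-Hochberg adjusted p = 0.876). Nts, the neurotensin precursor (ENSRNOG00000004179), held only 11 to 28 counts in vehicle and 18 to 34 in PAM libraries, and its log2 fold change of 0.17 ± 0.35 had an interval of -0.56 to 0.91 (edgeR, adjusted p = 0.781). Vehicle 3, at 3.44 CPM, was the lowest Nts library of the 8.

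Cartpt, which encodes the CART peptides (ENSRNOG00000017712), was decided by a single library. It was at 3.96, 5.51, 4.38 and 3.56 CPM in vehicle 1 to 4, against 1.84, 3.84, 4.11 and 17.3 CPM in PAM 1 to 4. PAM 4 was far above the other 7 libraries, with 48 counts against 8 to 20. The log2 fold change was 0.56 ± 0.55 (edgeR, Benjamini-Hochberg adjusted p = 0.524) with all libraries and -0.42 without PAM 4 (adjusted p = 0.578). In CPM, Adcyap1, Tac1, Crh, Sst and Cartpt were each at their highest of the 8 libraries in PAM 4.

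**Figure D4:**
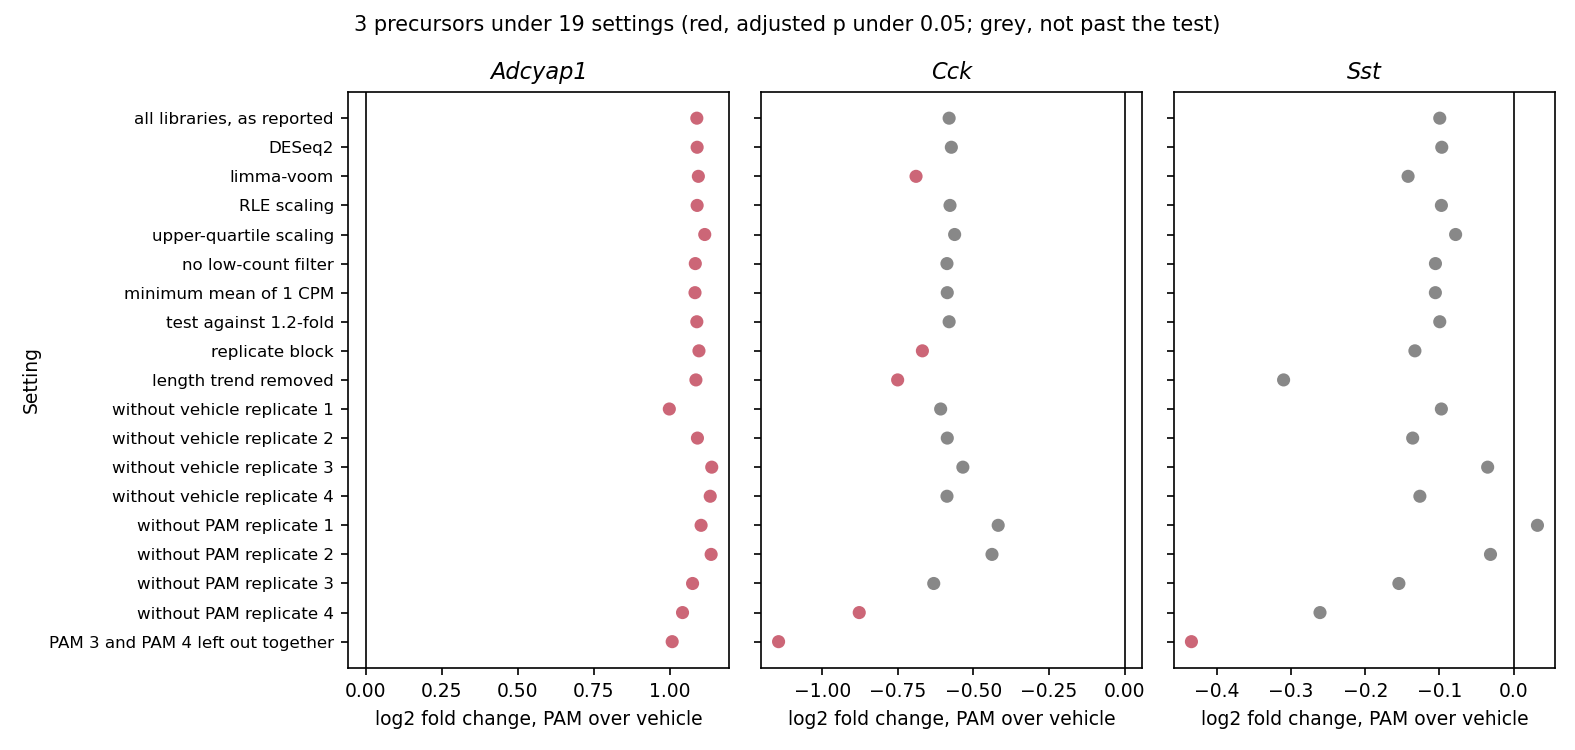
Log2 fold change of Adcyap1, Cck and Sst, PAM over vehicle, with all libraries and under 18 alternatives; red points have adjusted p under 0.05 and grey points do not, and each panel has its own scale. Adcyap1 stays between 1.00 and 1.14, whereas Cck runs from -1.14 to -0.42 and passes the test in 5 alternatives, and Sst from -0.43 to 0.03 and passes in 1.

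Of the 14 tested receptors and binding partners of the 10 peptides, 6 fell and 1 rose, beside 9.89% of all genes tested called lower and 9% called higher. Sstr2, Sstr3, Hcrtr1 and Ntsr1 would not have passed the filter on low counts by their PAM libraries alone. Their higher vehicle libraries let them in, so the count of 6 is a description. With no such filter Sstr2, Sstr3 and Ntsr1 kept their calls and Hcrtr1 lost its call. Against a 1.2-fold change 3 were called lower, Crhbp, Ntsr1 and Sstr3. The median log2 fold change of the 14 was -0.65, against 0.02 for all genes tested, and -0.25 without PAM 3 and PAM 4. Of 28 listed genes 17 were matched, and Vipr2, Crhr1 and Crhr2 had too few counts to be tested. The other 11 were not analysed here. No opioid receptor was among those tested, and Tacr3 is given as the receptor of neurokinin B, which none of the 10 precursors encodes.

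Neurotensin receptors went opposite ways. Ntsr2, the receptor known from astrocytes, rose from 142 ± 12.2 to 228 ± 17.5 CPM, a log2 fold change of 0.68 ± 0.11 (edgeR, Benjamini-Hochberg adjusted p = 2.13e-04). Ntsr1, the neuronal high-affinity receptor, was at 8.23, 8.26, 10.6 and 11.97 CPM with vehicle and 1.84, 4.05, 3.01 and 3.25 CPM with PAM, with no overlap, and fell by 1.67 ± 0.37 on the log2 scale (adjusted p = 0.00383). Sort1, the sorting receptor sortilin that also binds neurotensin, fell by 0.42 ± 0.10 (edgeR, adjusted p = 0.0062). Its call was lost with the length trend removed (-0.30, adjusted p = 0.0521) and against a 1.2-fold change (adjusted p = 0.121).

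Crhbp, which binds and sequesters CRH and marks a set of somatostatin interneurons, was at 76.5, 109, 100 and 89.0 CPM with vehicle and 37.6, 49.0, 39.7 and 48.3 CPM with PAM. The groups were well separated, and the gene fell by 1.10 ± 0.14 on the log2 scale (edgeR, Benjamini-Hochberg adjusted p = 3.51e-05), while Crh itself did not pass the test. Sstr3, the somatostatin receptor of neuronal primary cilia, fell by 1.80 ± 0.38 (edgeR, adjusted p = 0.00283) from 9.36 ± 2.13 to 2.70 ± 0.76 CPM. Sstr2 fell by 1.48 ± 0.49 (edgeR, adjusted p = 0.0396), a call lost without vehicle 2, 3 or 4 or PAM 1 or 2, at adjusted p = 0.0641 to 0.168. Sstr1 was at 0.48 ± 0.24 (adjusted p = 0.186) and Sstr4 at 0.18 ± 0.50 (adjusted p = 0.843).

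Orexin receptors were scarce. Hcrtr1 was at 5.49, 7.43, 8.14 and 6.15 CPM with vehicle and 2.77, 1.49, 3.56 and 3.61 CPM with PAM, which did not overlap, and it fell by 1.27 ± 0.42 on the log2 scale (edgeR, Benjamini-Hochberg adjusted p = 0.0391). That call was lost on leaving out any one library but PAM 4, at adjusted p = 0.0505 to 0.112. It was also lost with the replicate block (adjusted p = 0.0639) and with no filter on low counts. Hcrtr2, with 4 to 13 counts in vehicle and 6 to 13 in PAM libraries, was at 0.03 ± 0.55 (edgeR, adjusted p = 0.982). Adcyap1r1, the PACAP receptor, was at 303 ± 18.6 and 272 ± 18.6 CPM, a log2 fold change of -0.16 ± 0.10 (edgeR, adjusted p = 0.297). The log2 fold changes of Cckbr, Tacr3 and Npy1r, receptors of cholecystokinin, neurokinin B and neuropeptide Y, were -0.88 ± 0.37, -0.87 ± 0.59 and -0.25 ± 0.39 (edgeR, adjusted p = 0.102, 0.33 and 0.72). Without vehicle 1 Cckbr passed at -1.12 (adjusted p = 0.0338).

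**Figure D5:**
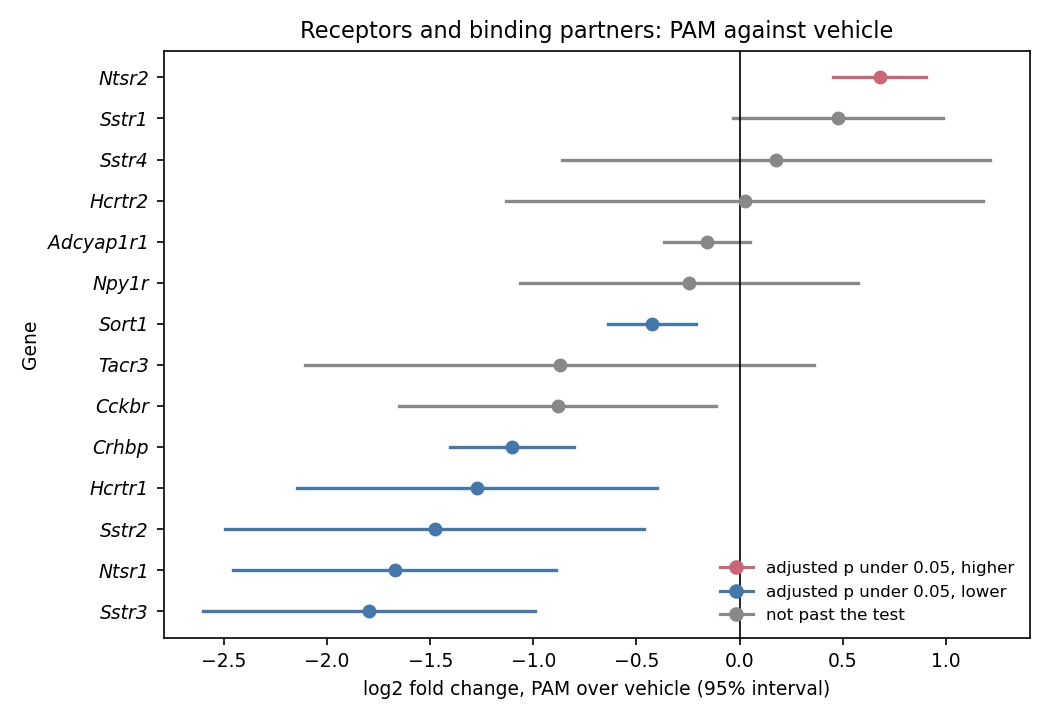
Log2 fold change of the 14 tested receptors and binding partners, PAM over vehicle, with 95% intervals from edgeR; red and blue mark adjusted p under 0.05, higher and lower, and grey marks genes not past the test. Ntsr2 is the only one called higher, at 0.68, and the 6 called lower run from -0.42 for Sort1 to -1.80 for Sstr3.

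A wider list of peptide precursors held no gene called higher. Of 48 listed, 27 were matched and 15 tested, of which 0 rose and 1 fell, beside 9% and 9.89% of all genes tested, with a median log2 fold change of -0.33 (-0.55 without PAM 3 and PAM 4, when 7 were called lower). Nppc, the C-type natriuretic peptide precursor, was the gene that fell, by 0.85 ± 0.27 on the log2 scale (edgeR, Benjamini-Hochberg adjusted p = 0.0334). Its call was lost without vehicle 1, 2 or 3 or PAM 1 or 2, at adjusted p = 0.0586 to 0.116. Pdyn, the dynorphin precursor and the other main opioid precursor of granule cells, was at 57.9 ± 9.29 and 49.4 ± 4.26 CPM (edgeR, adjusted p = 0.308). Vip, a peptide of disinhibitory interneurons, was at 33.3 ± 10.7 and 24.0 ± 8.07 CPM (adjusted p = 0.194), and passed without PAM 3 and PAM 4 at a log2 fold change of -0.68 (adjusted p = 0.0449). Vgf was at 1779 ± 144 and 1308 ± 477 CPM and did not pass with all libraries (edgeR, adjusted p = 0.121) or with the length trend removed. It passed as lower with the replicate block (adjusted p = 0.0283), without PAM 4 (-0.68, adjusted p = 8.81e-04) and without PAM 3 and PAM 4 (-0.93, adjusted p = 8.66e-11). None of Pdyn, Vip and Vgf is named by the rule for naming genes, and all were chosen after their values were seen.

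Genes of peptide processing and dense-core vesicles were called in both directions, 3 of 22 higher and 5 lower beside 9% and 9.89% of all genes tested, with a median log2 fold change of -0.16 (-0.09 with the length trend removed, -0.07 without PAM 3 and PAM 4). Scg2, a granin that is also the source of secretoneurin, rose from 1114 ± 33.9 to 1637 ± 162 CPM, by 0.56 ± 0.10 on the log2 scale (edgeR, Benjamini-Hochberg adjusted p = 5.55e-04). Pcsk5, a proprotein convertase, rose by 0.62 ± 0.17 (adjusted p = 0.0174), a call lost without PAM 3 (adjusted p = 0.0573). The vesicle proteins Ptprn2, Cadps and Chga fell by 0.49 ± 0.11, 0.86 ± 0.20 and 0.51 ± 0.12 (edgeR, adjusted p = 0.00341, 0.00515 and 0.00655). With PAM 3 and PAM 4 left out Cadps was at -0.53 and Chga at -0.73.

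The other calls on that list, named after their values were seen, were Scg3, higher by 0.32 ± 0.10, and Chgb and the convertase Pcsk2, lower with log2 fold changes of -0.37 ± 0.11 and -0.31 ± 0.10. Against a 1.2-fold change, Scg2 and Cadps were the only calls left on the list. Each of Scg3, Chgb and Pcsk2 lost its call on leaving out any single vehicle library. Cpe and Pam, the genes of carboxypeptidase E and of the enzyme that amidates peptides, were the most abundant trimming enzymes, and neither passed the test with all libraries, with log2 fold changes of 0.16 ± 0.09 and -0.18 ± 0.10 (edgeR, Benjamini-Hochberg adjusted p = 0.258 and 0.217). Without PAM 3 and PAM 4 Cpe passed at 0.23 (adjusted p = 0.0339). Both were chosen after their values were seen.

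Known targets of the cAMP-responsive factor CREB, a group to which several precursors belong, were called in both directions as well. Of 19 tested, 7 rose and 4 fell, beside 9% and 9.89% of all genes tested. The median log2 fold change was 0.20, and it was unstable, at -0.0331 without vehicle 1, 0.13 without PAM 1 and 0.36 without vehicle 4. Fos, an AP-1 subunit, Crem, a CREB relative, Gem, a small GTPase, and Inhba, the activin subunit, rose by 1.09 ± 0.15, 1.04 ± 0.16, 0.97 ± 0.21 and 2.52 ± 0.52 on the log2 scale (edgeR, Benjamini-Hochberg adjusted p = 6.53e-05, 1.29e-04, 0.00308 and 0.00208). Inhba had 0 to 12 counts per vehicle library and passed the filter on low counts only by way of its PAM libraries. Its place among the 7 is thus a description, though it kept its call with no such filter. Its log2 fold change was 3.13 without vehicle 4. The other 3 that rose, Fosb, Nr4a2 and Bdnf, named after their values were seen, lost their calls without PAM 3 and against a 1.2-fold change, and each on leaving out other single libraries too, at adjusted p of up to 0.0743, 0.132 and 0.129. Bdnf also lost its call with PAM 3 and PAM 4 left out together. Arc, a synaptic plasticity gene, fell by 1.498 ± 0.19 (edgeR, adjusted p = 2.17e-05). The other 3 that fell were Egr1, Nr4a1 and Per1, named after their values were seen, with log2 fold changes of -0.92 ± 0.21, -0.49 ± 0.15 and -0.43 ± 0.14. Without PAM 3 and PAM 4 that of Egr1 was -0.59. Nr4a1 and Per1 lost their calls without vehicle 2, 3 or 4 or PAM 2 or 4, and Nr4a1 also without PAM 1, at adjusted p = 0.0515 to 0.133.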

How the data were processed

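Whole-number counts per gene were deposited by the authors for each of the 8 libraries, with Ensembl identifiers, exon coordinates on Rnor_6.0 and exonic lengths, per the file headers. Per the labels' protocols, RNA was isolated with RNAiso Plus and poly(A) libraries were built with a Vazyme VAHTS kit. STAR, featureCounts, DESeq2 and DESeq are named, without versions, in the submitters' processing notes. The sources used here do not give the strandedness or how multi-mapped reads were handled. None of the 10 precursors shares exon bases with another annotated gene. The authors' own comparison, also deposited, holds a signal value per group (its mean), a log2 fold change and p-values before and after adjustment, and supplied the gene symbols, through which 169 of 225 listed genes were matched.

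Counts were fitted in R 4.3.3 with edgeR 4.0.16: filterByExpr, TMM scaling, robust quasi-likelihood F test, group as the only term, Benjamini-Hochberg adjusted p under 0.05 over 11740 genes. CPM uses TMM-scaled library sizes. Log2 fold changes had a median SE of 0.20, at a common biological variation of 17.7%. The procedure was also run on simulated counts with known changes. Pairs of libraries within a group differed beyond sampling noise, at a chi-square per degree of freedom of 2.77 to 14.8. Alternatives were DESeq2 1.42.0, limma-voom (limma 3.58.1), upper-quartile and RLE scaling, a block for the replicate number, a test against a 1.2-fold change, a minimum mean of 1 CPM or no filter on low counts, length trends removed library by library (loess on exonic length), each library left out in turn, and PAM 3 and PAM 4 left out together.

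Named genes were all 10 precursors, every tested receptor, up to 5 genes of smallest p past the test from each other list, with cell type lists given as counts alone, and the 2 genes most like each called precursor. The precursors and the 13 other lists were chosen with earlier results of these data known.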

Additional observations from a re-analysis of the deposited data

Results flagged for a closer look

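The level of Cartpt in PAM 4, 17.3 CPM, lay far from the other 3 PAM libraries (1.84 to 4.11 CPM). Its gap to the nearest of them was 0.854 of the group's whole range, above Dixon's 95% critical value for 4 samples. Of the 20 groups examined (10 precursors in 2 treatments) this was the only 1 so far out, and chance puts about 1 in 20 groups past that value.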

How the results depend on the processing

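Depth limits Hcrt, Cartpt, Nts and Npy, with at most 49 counts in any library. Penk, Adcyap1 and Hcrt kept direction and call in all 18 alternatives. The number of precursors called was 5 without PAM 3 and PAM 4 (2 lower, Cck and Sst). Called lower was 1 precursor, Cck, against 0 with all libraries, in limma-voom, with the replicate block and with the length trend removed, and 0 to 1 on leaving out each library (Cck without PAM 4). Over all genes 1179 were called against a 1.2-fold change, and 41 instead of 62 list genes. Other precursors called lower numbered 3 with no low-count filter, 0 against 1.2-fold, 3 with the replicate block, 2 with the length trend removed (and 1 higher), 7 without PAM 3 and PAM 4, and 0 to 4 on leaving out each library. Receptors called lower numbered 3 against 1.2-fold. Processing genes numbered 1 higher and 1 lower against 1.2-fold, 6 higher and 8 lower without PAM 3 and PAM 4, and 3 to 7 lower on leaving out each library. Uncalled log2 fold changes that changed sign were those of Crh (-0.0616 with the length trend removed), Cartpt (-0.0478 in limma-voom, -0.59 without PAM 3 and PAM 4) and Hcrtr2 (-0.0803 without PAM 3 and PAM 4). On leaving out each library Sst ran from -0.26 to 0.0323, Nts from -0.0317 to 0.34, Crh from -0.0717 to 0.16, Cartpt from -0.42 to 0.89, Hcrtr2 from -0.25 to 0.30 and Sstr4 from -0.18 to 0.41. The causes of these moves were not tested. Ranks of the precursors in vehicle libraries were the same by TMM-scaled RPKM for all 10. That measure uses the same counts and exonic lengths as TPM, so it is not an independent check.

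The replicate numbers did not pair the libraries: correlations of same-numbered libraries' deviations from their group means were 0.0516, -0.0454, 0.0676 and -0.0595. With the replicate number as a block 954 genes were called higher and 1110 lower, against 1057 and 1161.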
